A study of Saccharomyces cerevisiae and Neurospora crassa and Schizosaccharomyces pombe with 13 samples.

Results

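The regions described here are pairs of neighbouring Neurospora crassa genes that point towards each other and whose annotated transcripts overlap at the place where they meet. They were taken from the gene annotation deposited with the series. The span of a gene ran from the lowest to the highest exon base over all of its transcripts, and genes were put in order of their start along each of the 7 sequences. A consecutive pair counted as convergent where the left gene lay on the plus strand and the right gene on the minus strand, and as overlapping where the right gene began at or before the last base of the left gene. Overlapping convergent pairs numbered 966 among 9723 consecutive pairs and among 2680 convergent pairs, and 1714 convergent pairs did not overlap. The members hold 1932 of the 9730 annotated genes, or 19.9%, each in 1 pair. The members were thus chosen by the annotated gene ends, and overlap lengths, 3′ UTR lengths and the distance between stop codons are given as descriptions without a test.

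The study prepared 13 MNase-seq libraries, a method that maps nucleosomes by cutting the linker DNA with micrococcal nuclease, from budding yeast (Saccharomyces cerevisiae), fission yeast (Schizosaccharomyces pombe) and the filamentous fungus N. crassa. The 2 N. crassa libraries came from wild-type conidia, the asexual spores, grown for 3.5 h, with over 70% germinated, and fixed in 1% formaldehyde for 10 min. Nucleosome footprints and sequencing depth of the libraries were not analysed here, and no library or growth condition enters a comparison. The annotation carries no measurement of a library, and its transcript ends were not checked against transcript data.

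Facing genes are transcribed towards each other, and each polymerase runs some way past the stop codon before the RNA is cut and polyadenylated. The stretch between the stop codon and that end is the 3′ untranslated region, or 3′ UTR. Where the 2 ends overlap, the RNAs carry complementary stretches that can pair, and polymerases on opposite strands can meet. In N. crassa, convergent transcription is known as a source of dicer-independent small interfering RNAs and of DNA methylation at some loci. No sequence of N. crassa was used here, and the annotation gives no gene names, so genes are called by their identifiers.

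Most overlaps were short, and a tail of long ones ran through neighbouring coding regions. Overlap lengths spanned 1 to 3481 bp, with a median of 167.5 bp and the middle 50% between 79 and 570 bp. It was under 150 bp, about the DNA wrapped in 1 nucleosome core, in 440 pairs (45.5%), and 1000 bp or longer in 161 pairs (16.7%). Together the overlaps covered 422155 bp. The threshold of the rule cut through a continuous distribution, with 28 pairs overlapping by 1 to 10 bp just inside it and 33 pairs with gaps of 0 to 9 bp just outside. The shortest overlaps, of 1 bp, were held by 4 pairs, and 4 other pairs abutted with a gap of 0 bp.

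What the overlap reached was closely tied to its length. In 545 pairs (56.4%) the overlap lay within UTRs of both genes, with quartiles of 48, 96 and 155 bp and a longest overlap of 718 bp. In 357 pairs (37.0%) it reached the coding part of 1 gene, the stop codon included, with a median of 643 bp. In 64 pairs (6.63%) it reached the coding parts of both genes, with a median of 977 bp. Of the 440 overlaps under 150 bp, 46 reached coding sequence (10.5%), against 251 of the 254 overlaps of 500 bp or more (98.8%).

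**Figure D1:**
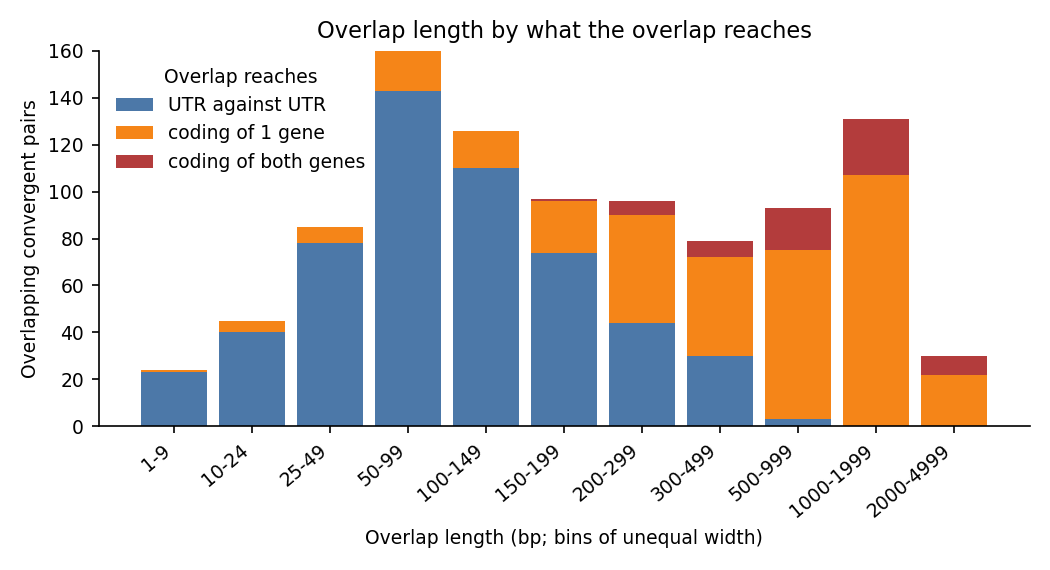
Number of overlapping convergent pairs (vertical axis) by overlap length in bp (horizontal axis, bins of unequal width), stacked by whether the overlap lies in UTRs of both genes, reaches the coding part of 1 gene or reaches the coding parts of both. Overlaps within UTRs make up most of each bin below 150 bp, and all 161 overlaps of 1000 bp or more reach coding sequence.

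Counted base by base, overlapped DNA was more often UTR of one gene and coding sequence of the other than UTR of both. Of the overlapped bases, 243721 (57.7%) paired UTR with coding sequence and 159359 (37.7%) paired UTR with UTR. UTR lay opposite an intron over 17463 bases (4.14%) and coding sequence opposite an intron over 1433 bases (0.339%). Introns of both genes coincided over 177 bases (0.0419%). Coding sequence lay opposite coding sequence at 2 bases, both in the pair of NCU00180 and NCU00179 described below.

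The 7 sequences resembled each other in these measures. The share of convergent pairs that overlapped was 35.4% ± 2.62 (SD, n = 7 sequences), with a lowest of 32.0%, a median of 35.8% and a highest of 38.7%. The median overlap length averaged 169 ± 19.0 bp, with a lowest of 136 bp on sequence 3, a median of 171 bp and a highest of 192 bp on sequence 7. The share of overlaps that reached coding sequence averaged 44.3% ± 3.82, with a lowest of 39.4% on sequence 1, a median of 44.2% and a highest of 50.5% on sequence 7. Of the 16 quantities examined over the 7 sequences, none had a sequence far apart from the others by Dixon's criterion. The share of genes in overlapping pairs with an annotated 5′ UTR, compared below, was 88.7% on sequence 7 and between 93.0% and 95.6% on the others. Sequence 1, with the most convergent pairs, 670, held 259 of the members, and sequence 6 held the fewest, 86 of 269.

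Where both 3′ UTRs were annotated, overlapping and other convergent pairs differed mainly in how close their stop codons lay. The median lengths of their 3′ UTRs differed little. These values helped to choose the members and carry no test. Where both genes had an annotated 3′ UTR, the 2 UTRs together measured a median of 814 bp in overlapping pairs (quartiles 564.25 and 1235 bp, 878 pairs) and 775 bp in non-overlapping pairs (quartiles 532 and 1068 bp, 1001 pairs). The bases between the stop codons, over the same pairs whose ends face each other, had a median of 506 bp in overlapping pairs (quartiles 338 and 750.5 bp, 875 pairs) and 1359 bp in non-overlapping pairs (quartiles 910 and 2168 bp). The longer UTR of a pair had a median of 520 bp in overlapping and 505 bp in non-overlapping pairs, and the shorter one 247 bp in overlapping and 244 bp in non-overlapping pairs.

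The share of convergent pairs that overlapped fell steadily with the distance between the stop codons. Among pairs with both 3′ UTRs annotated, 118 of 124 overlapped where the stop codons lay under 250 bp apart (95.2%). The share was 84.7% of 365 pairs from 250 bp, 60.0% of 590 pairs from 500 bp and 18.1% of 503 pairs from 1000 bp. At 2000 bp or more, 3 of 294 pairs overlapped (1.02%). A gap is the distance between the stop codons less the 2 UTRs and their introns, so a fall follows from the rule, and only its shape is described.

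**Figure D2:**
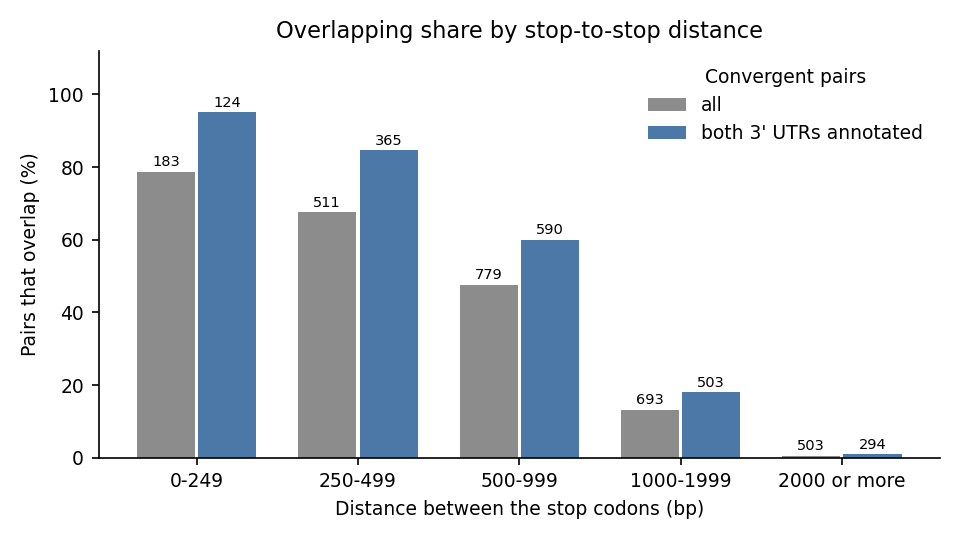
Share of convergent pairs that overlap, in percent (vertical axis), by the distance between the 2 stop codons in bp (horizontal axis), for all convergent pairs whose ends face each other (grey) and for those with both 3′ UTRs annotated (blue); numbers above the bars are convergent pairs. The blue bars go from 95.2% under 250 bp to 1.02% at 2000 bp or more.

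Overlapping pairs had the more complete 3′ UTR annotation, which the rule itself favours. Both genes had an annotated 3′ UTR in 878 overlapping pairs (90.9%), against 1001 non-overlapping pairs (58.4%). In 88 overlapping pairs 1 gene lacked a 3′ UTR, and in 0 both did. Among non-overlapping pairs, 576 lacked 1 and 137 lacked both. Where a transcript ends at its stop codon, any overlap with it touches coding sequence. Of the 324 pairs that were not nested and reached the coding part of 1 gene, 69 had 1 gene whose longest transcript had no 3′ UTR, and 255 had both 3′ UTRs annotated.

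Where an overlap reached the coding part of 1 gene, the 3′ UTRs of the pair were unequal, which the class itself entails: a 3′ UTR that reaches the partner's stop codon spans the whole distance between the stop codons, and the partner's does not. The reaching gene had a median 3′ UTR of 843.5 bp (quartiles 446.75 and 1397.5 bp), and the gene reached had 165.5 bp (quartiles 61.5 and 281 bp). The reaching 3′ UTR was as short as 78 bp and as long as 3340 bp. In pairs with UTRs alone in the overlap, the longer 3′ UTR had a median of 444 bp and the shorter one 261 bp. The stop codons of pairs with 1 coding part reached lay a median of 388 bp apart, those of pairs with both reached 162.5 bp, and those of pairs with UTRs alone 592 bp. Both strands were reached. The coding part reached belonged to the plus-strand gene in 178 pairs and to the minus-strand gene in 146, and the 3′ UTRs annotated in members had the same median, 362 bp, on both strands.

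Among coding regions entered by the partner's transcript, coverage under 10% was the fullest step of 10 percentage points, though not a majority. A smaller set was covered whole. In the 929 pairs without nesting there were 1858 transcript ends. Of these, 1414 lay on the 3′ UTR side of the partner, 377 within its coding span and 67 on its 5′ UTR side, past the whole coding part. The 444 coding parts reached were covered over a median of 24.0% of their length. Coverage was under 10% in 154 of them and 90% or more in 86, of which 67 were covered whole. The 19 covered over 90% or more but not whole were no more than the 22 at 70% to 80% and the 20 at 80% to 90%. Between these ends, no step of 10 percentage points held more than 43 coding parts, and the fewest, 14, were covered over 60% to 70%.

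The longest overlap of each sequence shows how such pairs are built. NCU08689 and NCU08688, on sequence 4, held the longest of all, 3481 bp from 4091898 to 4095378. It also contained the most coding bases, 3004, and the most bases in exons of both genes, 3347. The 3′ UTR of NCU08688 measured 2888 bp and lay over 71.2% of the coding part of NCU08689, whose own 3′ UTR of 936 bp lay over 25.8% of that of NCU08688. Their stop codons were 343 bp apart.

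On sequence 5, NCU01412 had the longest 3′ UTR of any member, 3340 bp. It covered the whole coding part of NCU01413, 2505 bp with the stop codon, in an overlap of 2970 bp from 3973437 to 3976406. On sequence 2, the 3′ UTR of NCU09355, 3134 bp, covered 95.6% of the coding part of NCU09354 in an overlap of 2903 bp from 4219386 to 4222288. The coding part of NCU09355 itself measured 738 bp, less than its 3′ UTR. On sequence 3, NCU00109, with a 3′ UTR of 2605 bp, covered 99.5% of the coding part of NCU00110 in an overlap of 2415 bp from 2649271 to 2651685.

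On sequence 6, NCU05540 and NCU05539 each covered the whole coding part of the other in an overlap of 2522 bp from 1577165 to 1579686. The coding parts lay end to end with 227 bp between the stop codons, and the 3′ UTRs measured 1242 bp in NCU05540 and 1507 bp in NCU05539. On sequence 7, NCU02195 had neither UTR, and the 3′ UTR of NCU02194, 2357 bp, covered 98.5% of its coding part over 2253 bp from 3378280 to 3380532. That overlap held 5 introns. On sequence 1 the longest overlap, 2881 bp from 9602211 to 9605091, held the whole of NCU08612, past the stop codon of NCU08611. That pair also had the most introns wholly inside an overlap, 6.

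**Figure D3:**
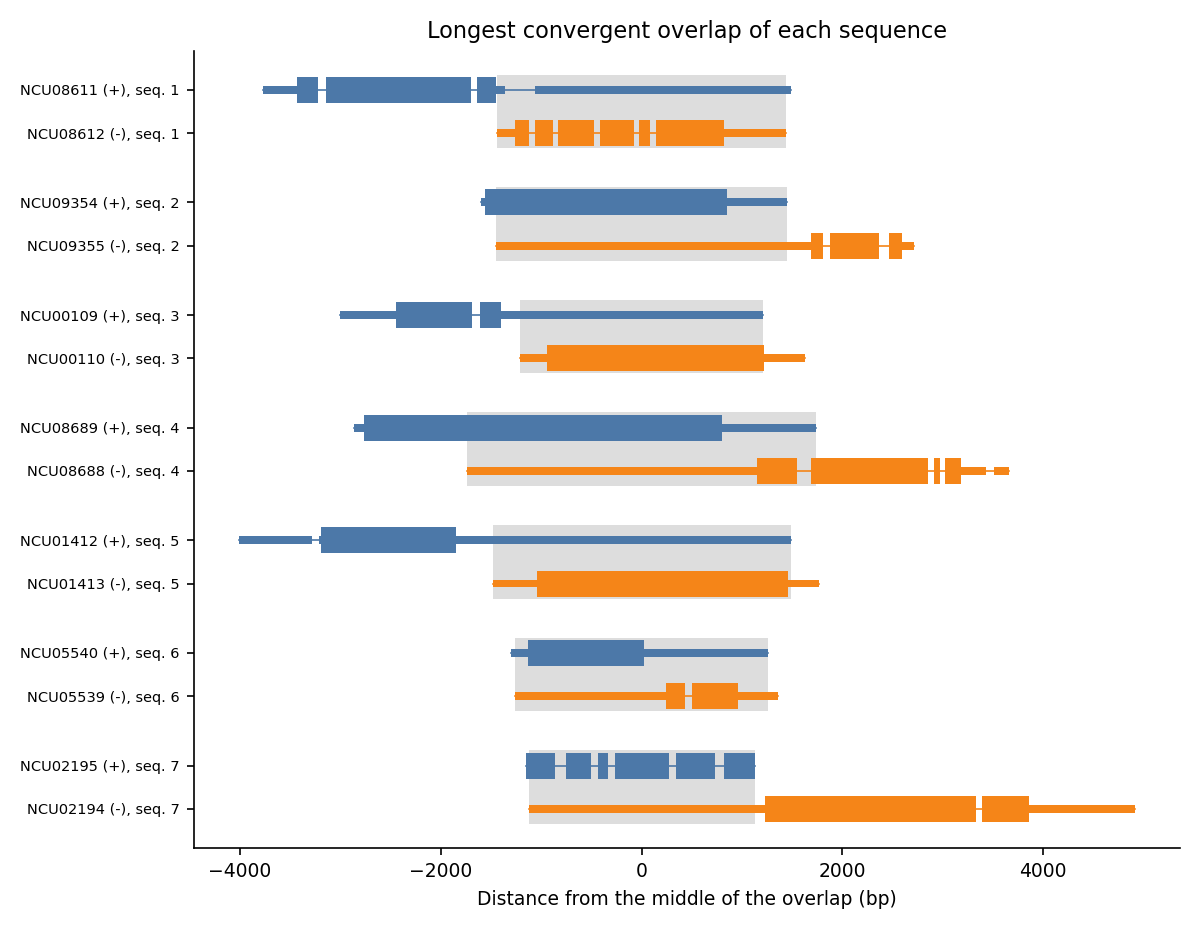
Gene models (longest transcript) of the pair with the longest overlap on each of the 7 sequences, drawn by distance in bp from the middle of the overlap; the plus-strand gene is blue and lies above its minus-strand partner in orange, thick boxes are coding parts, thin boxes UTRs and lines introns, and the grey area is the overlap. In each pair at least 1 coding part lies largely or wholly within the transcript of the partner, and in NCU05540 and NCU05539 both do.

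The other extremes were set by the position of the stop codons. NCU06997 and NCU06998, on sequence 4, had the closest facing stop codons, 28 bp apart. Their overlap of 1546 bp reached 43.1% of the coding part of NCU06997 and 90.8% of that of NCU06998. NCU05345 and NCU05347, on sequence 2, had the most distant ones, 3793 bp apart. A 3′ UTR of 2677 bp in NCU05347 brought the transcripts together over 166 bp, without reaching a coding part. NCU05347 has 3 annotated transcripts, and the next gene by position begins within its span, between these stop codons. Among the pairs with an overlap of 1 bp were NCU02620 with NCU02621, NCU09489 with NCU11088 and NCU07886 with NCU07887. Their stop codons lay 1740, 414 and 709 bp apart. The nearest pairs outside the rule included NCU02493 with NCU02494, NCU07972 with NCU07971 and NCU08027 with NCU08028, each with a gap of 0 bp. Their stop codons lay 445, 910 and 710 bp apart, within the range of the 1 bp overlaps.

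In 37 pairs (3.83%) the minus-strand gene lay wholly inside the plus-strand gene. Of these nested genes, 26 had their stop codon on the 3′ side of the stop codon of the outer gene and 11 on the 5′ side. Of the 26, 23 lay wholly past the stop codon of the outer gene, and the rest ran across it. The 11 meet the rule but are not overlaps of transcript ends, which leaves 955 pairs with facing ends. Outer genes with a nested gene on the 3′ side had 3′ UTRs with a median of 1662 bp, and those with one on the 5′ side had 5′ UTRs with a median of 1430 bp. Nested genes had short coding parts, with a median of 822 bp (quartiles 432 and 1143 bp) against 1437 bp in the outer genes. A nested gene must fit within the span of the outer one, so nesting itself favours this difference. No UTR was annotated for 15 of the 37, and 21 had an intron. A plus-strand gene inside a minus-strand gene sorts after it and counts as divergent. There were 33 of those, and 6 further overlaps of plus-strand with minus-strand genes were not consecutive, so the rule leaves these out.

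NCU09828, on sequence 5, was the nested gene that lay within an intron of its outer gene, NCU09827, and this pair shared 0 exonic bases over its overlap of 433 bp. NCU01003 lay inside the 5′ part of NCU01004 on sequence 5. NCU00179, on sequence 3, lay on the 5′ side of NCU00180, and the coding parts of these genes shared 2 bases where their starts meet (the pairs sharing 0 exonic bases and 2 coding bases were singled out after their values were seen).

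Most overlaps held no whole intron, and no pair had the same intron on both strands. Many overlaps were short, and the frequency of introns inside them was not set against that outside. The overlap was exon of both genes throughout in 820 pairs (84.9%). An intron lay wholly inside it in 116 pairs, with 1 intron in 82, 2 in 20 and 3 or more in 14. These 170 introns of the longest transcripts comprised 133 within coding spans and 37 after the stop codon, and had a median of 73 bp. Of these, 161 lay wholly inside an exon of the partner, so the opposite transcript runs unspliced across them. The same intron was annotated on both strands in 0 pairs.

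Most members had 1 transcript per gene, so that their overlap could not vary between transcripts. A gene with several transcripts was present in 205 of the 966 pairs. Of these 205 pairs, 35 (17.1%) overlapped in some combinations of transcripts and not in others. Several transcripts were annotated for 216 of 1932 genes in overlapping pairs (11.2%) and for 299 of 3428 in non-overlapping pairs (8.72%). An intron after the stop codon was annotated for 87 genes in overlapping pairs (4.50%) and 63 in non-overlapping pairs (1.84%). Both features lengthen a span, so these shares are not independent of the rule.

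The ends of the genes that the rule did not use were compared next. An annotation has no biological replicates, so each quantity was computed on each of the 7 sequences. An exact permutation test, two-sided and made by flipping the sign of each sequence's difference, was applied to 5 quantities, with Benjamini-Hochberg adjustment over the 5. The smallest p it allows is 0.0156. Sequences are not replicates, and an SD here is the spread from one sequence to another.

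Genes of overlapping pairs also had less room before their starts. The median gap between a gene's start and the neighbour before it had a lowest sequence value of 415.5 bp, a median of 535 bp and a highest of 632 bp in overlapping pairs, against 810.5, 940.5 and 1027 bp in non-overlapping pairs. The sequence values of the groups did not overlap. They averaged 528 ± 71.0 bp in overlapping pairs and 917 ± 89.9 bp in non-overlapping pairs (SD, n = 7 sequences). The difference was -389 ± 121 bp, below 0 on 7 of 7 sequences (exact permutation p = 0.0156, adjusted p = 0.0195). Between coding spans, which no UTR can shorten, the gap averaged 1271 bp in overlapping and 1594 bp in non-overlapping pairs, a difference of -323 ± 111 bp on 7 of 7 sequences (exact permutation p = 0.0156). Against non-overlapping pairs with gaps under 500 bp at their facing ends, the difference narrowed to -193 ± 148 bp and stayed below 0 on 7 of 7 sequences. With both UTRs annotated for both genes it was -234 ± 113 bp, and with means in place of medians -618 ± 343 bp.

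Overlapping pairs were made of shorter coding regions. The median coding length had a lowest sequence value of 1065 bp, a median of 1191 bp and a highest of 1245 bp in overlapping pairs, against 1297.5, 1339.5 and 1441.5 bp in non-overlapping pairs. Again the sequence values did not overlap. They averaged 1159 ± 66.4 bp in overlapping and 1348 ± 48.9 bp in non-overlapping pairs. The difference was -189 ± 102 bp, below 0 on 7 of 7 sequences (exact permutation p = 0.0156, adjusted p = 0.0195). Among pairs with both 3′ UTRs annotated it was -314 ± 138 bp.

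Their 5′ UTRs, the transcribed stretch before the start codon, were shorter too. In genes that had one, the median 5′ UTR averaged 288 ± 12.6 bp in overlapping and 337 ± 15.2 bp in non-overlapping pairs. The difference was -48.6 ± 20.7 bp, below 0 on 7 of 7 sequences (exact permutation p = 0.0156, adjusted p = 0.0195). It was -81.8 ± 29.3 bp among pairs with both 3′ UTRs annotated and -36.0 ± 14.9 bp among pairs whose genes had 1 transcript each, below 0 on 7 of 7 sequences in both. Against non-overlapping pairs with gaps under 500 bp it was -34.8 ± 25.7 bp, below 0 on 6 of 7 sequences (exact permutation p = 0.0313).

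A 5′ UTR was annotated more often in overlapping pairs. The rule favours genes with an annotated 3′ UTR, and the annotation of both UTRs of a gene may share evidence. The test over all pairs is therefore not independent of the rule. The share of genes with one averaged 93.5% ± 2.36 in overlapping and 73.5% ± 3.95 in non-overlapping pairs, a difference of 20.0 ± 2.92 percentage points, above 0 on 7 of 7 sequences (exact permutation p = 0.0156, adjusted p = 0.0195). Among pairs with both 3′ UTRs annotated the shares were 97.0% in overlapping and 93.9% in non-overlapping pairs, and the difference narrowed to 3.06 ± 0.977 percentage points, still above 0 on 7 of 7 sequences (exact permutation p = 0.0156).

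The number of coding introns per gene did not pass its test. It averaged 1.47 ± 0.101 in overlapping and 1.58 ± 0.0776 in non-overlapping pairs, a difference of -0.110 ± 0.104 that was below 0 on 5 of 7 sequences (exact permutation p = 0.0625, adjusted p = 0.0625). Counted per kb of coding length, introns were denser in overlapping pairs, with 1.08 per kb against 0.976 per kb in non-overlapping pairs, above 0 on 6 of 7 sequences (exact permutation p = 0.0313). The direction therefore depends on whether the shorter coding length is taken into account.

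**Figure D4:**
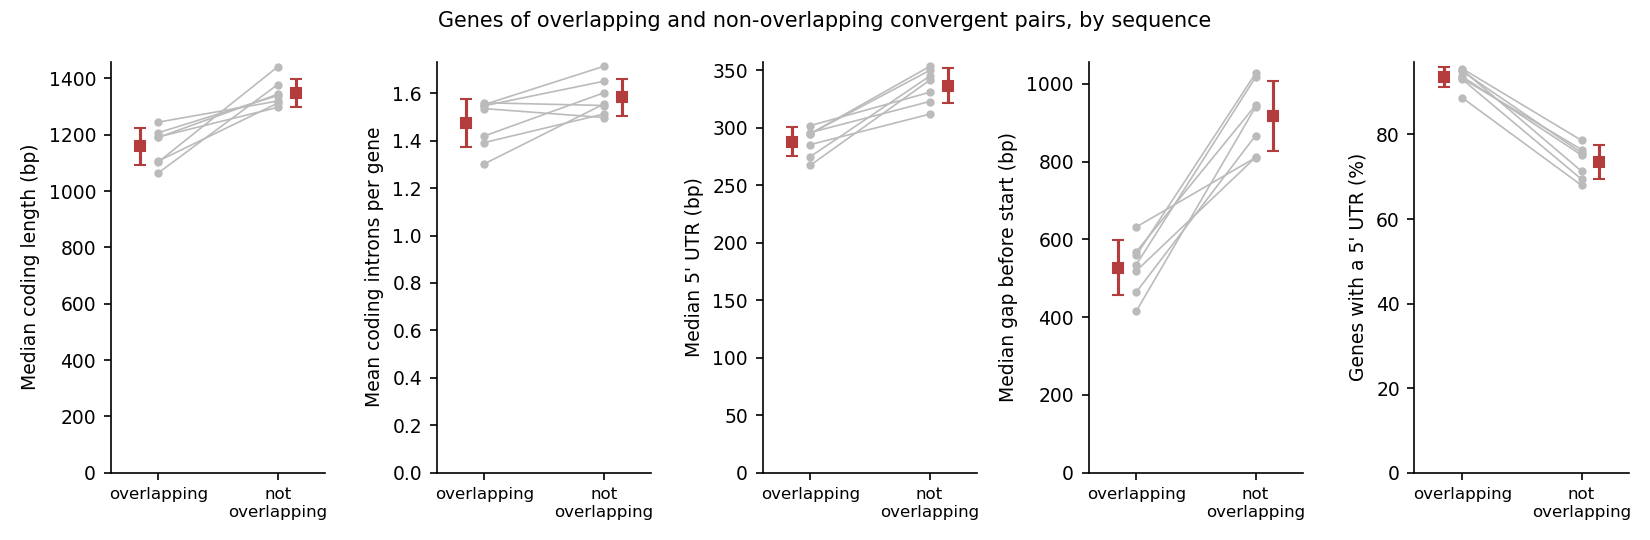
Values on each of the 7 sequences (grey points joined by a line) for genes of overlapping pairs (left) and non-overlapping convergent pairs (right), with mean ± SD over sequences in red; the panels show median coding length in bp, mean coding introns per gene, median 5′ UTR in bp, median gap before the gene start in bp and the percent of genes with an annotated 5′ UTR. In 4 of the 5 panels all 7 sequences move the same way, and in the intron panel 5 of 7 do.

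Overlapping pairs were less frequent near the ends of the sequences. Each sequence was divided into 5 parts of equal length, up to the last annotated base. The overlapping share averaged 25.4% ± 6.85, 36.3% ± 5.12, 41.7% ± 4.79, 43.1% ± 5.03 and 26.9% ± 5.28 from the first to the last part (SD, n = 7 sequences). It averaged 26.5% ± 4.84 in the 2 outer parts together and 40.5% ± 4.07 in the 3 inner ones, and was lower in the outer parts on 7 of 7 sequences. Both 3′ UTRs were annotated for 56.3% ± 10.9 of convergent pairs in the outer parts and 76.0% ± 4.45 in the inner ones. Among pairs with both annotated, 38.7% ± 4.70 overlapped in the outer and 49.8% ± 4.44 in the inner parts. The stop codons lay a median of 991 ± 122 bp apart in the outer and 854.5 ± 81.6 bp in the inner parts. The part of UTR annotation and spacing in the positional difference was not tested, nor was the difference itself.

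**Figure D5:**
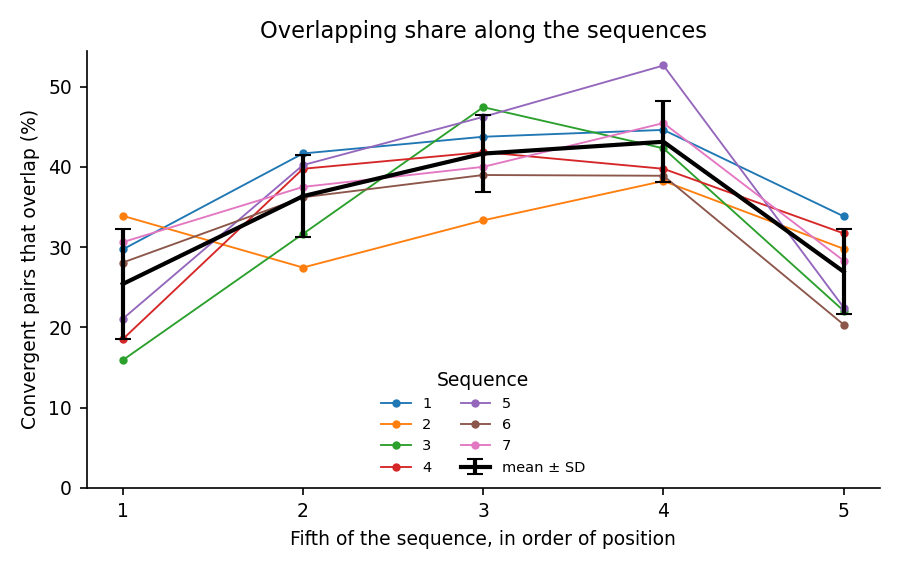
Share of convergent pairs that overlap, in percent (vertical axis), in 5 equal parts of each sequence in order of position (horizontal axis); thin lines are the 7 sequences and the black line their mean with SD. The mean lies at 25.4% and 26.9% in the outermost parts and between 36.3% and 43.1% in the inner ones, while sequence 2 alone is higher in its first part than in its second.

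Successive convergent pairs were also compared. The convergent pair after an overlapping one overlapped in 40.7% ± 2.65 of cases, and that after a non-overlapping one in 32.6% ± 3.51, and the share after an overlapping pair was the higher one on 7 of 7 sequences. This was not tested, and consecutive pairs share their place along the sequence. At their starts, 42 of 1931 members' genes also overlapped the neighbour before them, against 107 of 3425 genes of non-overlapping pairs. These counts leave out the partner itself. The start of a nested gene lies inside its partner, in 37 genes of overlapping pairs and 0 of non-overlapping pairs. Which group has its starts overlapped more often therefore depends on whether the partner is counted.

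With nested genes left out, convergent pairs made up 929 of the 1060 overlaps between consecutive genes (87.6%), with a median of 160 bp. Among all consecutive pairs, overlapping or not, 2680 of 9723 were convergent. Divergent overlaps, at facing starts, numbered 83 with a median of 198 bp, and tandem overlaps numbered 48 with a median of 123.5 bp. Nested genes add 37 pairs to the convergent and 33 to the divergent overlaps, as the order by start places them. Since overlap defines these sets, their lengths are set side by side as a description.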

How the data were processed

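The authors deposited the N. crassa annotation as a GTF table with no header. Start and end positions (1-based, in bp) were read from it, and no score is filled in. NC12 gene calls are named as its source, and how its gene ends were set is not stated. Coordinates are those of the file. CASAVA and Bowtie2, named in the submitters' processing notes, concern the reads, which were not used. Coding parts were CDS records with the stop codon, while coding lengths leave the stop codon out. UTR, intron and coding lengths came from the transcript with the most exonic bases, and spans and overlaps from all transcripts. UTR lengths are exonic.

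Python 3.11.15, NumPy 2.4.6 and matplotlib 3.10.9 were used, and the calculations were tested on a simulated annotation with known overlaps. The threshold was an adjusted p of 0.05. The members, measures and named pairs were chosen with earlier results of these data known. Named pairs were those at the extremes of overlap length (per sequence), coding bases, introns, shared exonic bases, stop-to-stop distance, 3′ UTR length and the threshold, ties going to the lowest sequence and start. Alternatives covered transcript choice, minimum overlap, nesting, UTR annotation, the non-overlapping set and means.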

Additional observations from a re-analysis of the deposited data

How the results depend on the processing

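No paired analysis was possible because the libraries, which carry the replicate numbers, were not analysed here. The tests on the annotation pair overlapping with non-overlapping values within each sequence. Over 8 results, 45 alternatives other than leaving out a sequence were run, 6 of them added after seeing the data (both UTRs of both genes annotated, coding spans, and divergent neighbours alone). The overlapping share of 35.4% was 29.9% with overlaps of 50 bp or more, 46.6% with both 3′ UTRs annotated and 0% between CDS spans. The median overlap of 169 bp was 224 bp with overlaps of 50 bp or more, and the mean overlap was 434 bp. The share reaching coding sequence, 44.3%, was 50.7% with overlaps of 50 bp or more and 38.6% with both 3′ UTRs annotated. The difference in coding introns per gene, -0.110, passed its test at -0.107 (both 3′ UTRs annotated, exact permutation p = 0.0313), -0.125 (gaps under 500 bp, p = 0.0156), -0.0968 (genes with 1 transcript, p = 0.0469) and -0.120 (all UTRs annotated, p = 0.0313), and reversed to 0.102 per kb of coding length. The other 4 differences passed under each alternative run. Of these, the share of genes with a 5′ UTR is not independent of the rule, and its difference narrowed to 3.06 percentage points with both 3′ UTRs annotated. Leaving out each sequence in turn gave shares of 34.9% to 36.0%, overlaps of 165 to 174.5 bp, coding reach of 43.3% to 45.1%, and differences of -208 to -164 bp in coding length, -0.134 to -0.0861 coding introns, -52.25 to -44.3 bp in 5′ UTR, -424 to -367 bp in the gap before the start and 19.3 to 20.5 percentage points with a 5′ UTR. The 4 differences that passed lay on 1 side of 0 on all 7 sequences, so passing without 1 sequence was fixed in advance. The annotation has no sequencing depth.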

Other observations

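The same pairing was applied, after the data were seen, to the protein-coding genes of S. pombe in the RefSeq annotation of ASM294v3, a fungus of which the study holds 1 library. There 836 of 1393 convergent pairs overlapped, 59.7% ± 1.51 (SD, n = 3 chromosomes). The share in N. crassa was 35.4%, and 46.6% among pairs with both 3′ UTRs annotated, a restriction not applied to S. pombe. In S. pombe the median overlap was 174.5 ± 29.1 bp, and 47.0% ± 5.94 of overlaps reached coding sequence. Stop codons of convergent neighbours lay a median of 440.5 ± 70.1 bp apart and 3′ UTRs had a median of 258 ± 29.2 bp. A 3′ UTR was annotated for 92.5% of the genes, and 12.7% ± 1.87 of overlapping pairs were nested. Each species is represented by 1 annotation from a different source, so a difference between the species cannot be told apart from one between annotations, and none was tested.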
